A study of Homo sapiens with 2 samples.

Results

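The ZNF genes of human chromosome 19 were taken as the protein-coding genes of the deposited count table that carry a symbol of ZNF followed by digits and a position on chromosome 19. There were 245 of these among the 44591 genes of the table. Kept were the 231 that reached 10 reads in the sum of siNC and siLINP1, and they are described by their position along the chromosome. The minimum uses only this sum, but the group itself was picked with results of these data known, so its folds are given as a description. ZNF610, with 4 reads in siNC and 8 in siLINP1, was the member just inside the minimum, and ZNF114, with 5 and 4 reads, was just outside. The other 13 genes left out had 7 reads or fewer in all, among them ZNF382 with 2 and 0 reads, and 3 of them (ZNF534, ZNF667 and ZNF728) had no read in either library.

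The libraries came from HSC-1 cells (a human cutaneous squamous cell carcinoma line) transfected with siNC, a control siRNA, or siLINP1, which targets the long noncoding RNA LINP1. Per the labels, cells were transfected at 70% confluency, held for 6 h without serum and harvested 24 h after the change of medium, while the methods of the study give another confluency and time and do not name the siRNA oligonucleotide used for sequencing. Each condition had 1 library, so no difference below has a replicate check and no test was possible. LINP1 itself, on chromosome 10, was counted 167 times in siNC and 23 times in siLINP1, a log2 fold change of -2.65 (95% interval -3.35 to -2.02).

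Most ZNF genes of this chromosome encode proteins with an array of C2H2 zinc fingers, each finger holding a zinc ion and reading a short stretch of DNA. A large share also carry an N-terminal KRAB domain, which binds the co-repressor TRIM28 and through it the histone methyltransferase SETDB1, so that the bound site is packed into heterochromatin. The family is known for silencing transposable elements and has grown by local duplication, which leaves related genes side by side in clusters.

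Depth was 18829544 counted reads for siNC and 15383081 for siLINP1, of which the kept members took 0.254% and 0.363%. Median-of-ratios scaling gave size factors of 1.08 for siNC and 0.930 for siLINP1. Every log2 fold change below is siLINP1 over siNC on the scaled counts, followed by a 95% interval for counting error alone, obtained by the Clopper-Pearson method from how a gene's reads divide between the libraries. Among 16 genes of squamous keratinocytes, 6 were under 1 RPKM (reads per kilobase of gene, scaled to library depth) in both libraries, and their median log2 fold change was -0.21. Their reads summed to 15576 in siNC and 13215 in siLINP1. KRT5 had 32 and 24 reads, TP63 had 6 and 8 and CDH1 had 14 and 3, while KRT14 had 243 and 87. Read more deeply were ITGB4 (5990 and 3962), ITGA6 (4677 and 5058), S100A2 (2038 and 1724), PERP (1158 and 1398) and DSP (699 and 512). The whole interval lay below no change for 6 of the 16 and above it for 3. Among 10 mesenchymal genes, 3 (COL1A2, COL3A1 and THY1) were under 1 RPKM in both libraries, and VIM had 61097 and 41992 reads. The 9 mesenchymal genes with at least 10 reads had a median of -0.40, with the whole interval below no change for 7 and above it for 0. Of all genes with at least 10 reads, the whole interval lay below no change for 25.6% and above it for 23.0%. The part of these cell type genes in the values of the ZNF genes was not tested. A smaller share of cells with a transcript and less of it per cell cannot be told apart in these libraries.

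The 5 members closest to the short-arm end of the chromosome form the cluster with the highest median fold, and their promoters are printed first because 4 of them share a repeated sequence feature. The bases come from the promoter table of RefSeq (GRCh38.p14), and each run printed matched GRCh37 exactly at a single place, the one given. They stop before the start of the gene in the deposited table. Capitals mark the letters CCAAT or, for the other strand, ATTGG. ZNF93 is added as the member outside this cluster whose interval lay farthest above no change, and ZNF414 as the member whose interval lay farthest below it.

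ZNF554, chr19:2819616-2819865, plus strand: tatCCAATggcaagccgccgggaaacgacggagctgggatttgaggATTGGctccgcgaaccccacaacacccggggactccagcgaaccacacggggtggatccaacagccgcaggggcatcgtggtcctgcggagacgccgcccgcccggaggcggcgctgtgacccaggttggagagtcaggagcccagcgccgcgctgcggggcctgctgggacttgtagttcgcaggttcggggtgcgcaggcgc
ZNF555, chr19:2841223-2841432, plus strand: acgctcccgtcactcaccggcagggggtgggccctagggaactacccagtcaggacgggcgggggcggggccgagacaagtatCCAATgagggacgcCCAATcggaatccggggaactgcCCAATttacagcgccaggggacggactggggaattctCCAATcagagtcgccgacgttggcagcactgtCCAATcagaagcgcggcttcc
ZNF556, chr19:2867083-2867332, plus strand: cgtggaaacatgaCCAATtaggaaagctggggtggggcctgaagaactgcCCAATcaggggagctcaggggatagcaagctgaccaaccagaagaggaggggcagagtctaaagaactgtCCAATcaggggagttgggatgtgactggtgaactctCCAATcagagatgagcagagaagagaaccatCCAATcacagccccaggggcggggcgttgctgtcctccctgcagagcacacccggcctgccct
ZNF57, chr19:2900676-2900895, plus strand: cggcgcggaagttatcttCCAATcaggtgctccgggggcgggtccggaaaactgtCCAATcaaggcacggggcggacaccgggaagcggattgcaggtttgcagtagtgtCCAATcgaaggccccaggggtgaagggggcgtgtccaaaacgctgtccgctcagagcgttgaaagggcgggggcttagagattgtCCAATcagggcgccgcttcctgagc
ZNF77, chr19:2944970-2945219, minus strand: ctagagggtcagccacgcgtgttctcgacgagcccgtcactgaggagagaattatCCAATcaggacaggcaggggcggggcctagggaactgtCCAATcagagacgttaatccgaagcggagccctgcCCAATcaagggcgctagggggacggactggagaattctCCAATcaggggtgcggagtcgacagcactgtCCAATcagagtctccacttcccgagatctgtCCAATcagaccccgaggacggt
ZNF93, chr19:20011505-20011721, plus strand: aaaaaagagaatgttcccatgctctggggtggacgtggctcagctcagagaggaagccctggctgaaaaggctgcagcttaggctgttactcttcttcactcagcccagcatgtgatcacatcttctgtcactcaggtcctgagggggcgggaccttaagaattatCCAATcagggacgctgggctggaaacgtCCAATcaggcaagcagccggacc
ZNF414, chr19:8579052-8579301, minus strand: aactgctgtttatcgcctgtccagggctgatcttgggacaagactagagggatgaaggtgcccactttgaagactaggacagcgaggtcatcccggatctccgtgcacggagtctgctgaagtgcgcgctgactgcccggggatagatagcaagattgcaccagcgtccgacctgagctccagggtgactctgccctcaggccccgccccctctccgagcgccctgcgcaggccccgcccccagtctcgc

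The 250 bases before the start held 5 such boxes in ZNF555, 5 in ZNF556, 4 in ZNF57 and 6 in ZNF77, all in the same orientation as the gene. For ZNF57, which has 2 promoters in the RefSeq table, the one with most boxes was used. ZNF554 and ZNF93 had 2 boxes each and ZNF414 had 0. Of all 35116 promoters of the table, 32.0% held at least 1 box on either strand, 2.93% at least 3 and 0.319% at least 5. Among 11512 protein-coding genes with at least 10 reads, these shares were 41.6%, 5.29% and 0.547%, where a gene with several promoters is counted by the promoter with most boxes. Of the kept members, 203 matched the table, and 55.7% of these held at least 1 box, 5.42% at least 3 and 1.48% at least 5. The motif was chosen after the values had been seen, and a match of letters is no evidence of binding.

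As a whole, the ZNF genes of chromosome 19 were higher in siLINP1-treated HSC-1 cells. Of the 231 kept, 188 had a positive and 43 a negative log2 fold change, with a median of 0.51 and quartiles of 0.10 and 0.89. Over all 19840 genes with at least 10 reads the median was -0.02. More than 1.5-fold higher were 102 members (44.2%), against 14.4% of all genes tested, and more than 2-fold higher were 45, against 6.74%. More than 1.5-fold lower were 5 members, namely ZNF414, ZNF428, ZNF524, ZNF575 and ZNF208, against 13.0% of all genes, and ZNF208 alone was more than 2-fold lower, against 5.30%. The whole interval lay above no change for 140 members and below it for 14, against 23.0% and 25.6% of all genes. The median of the members stood 0.53 above the median of all genes on the log2 scale under each scaling tried, since a scaling moves every gene alike. The members had modest levels, with 59 of them under 1 RPKM and 14 above 10 RPKM in siNC. By depth, the median was 0.38 for the 36 members under 100 reads, 0.63 for the 71 with 100 to under 300 reads and 0.45 for the 124 with 300 reads or more.

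**Figure D1:**
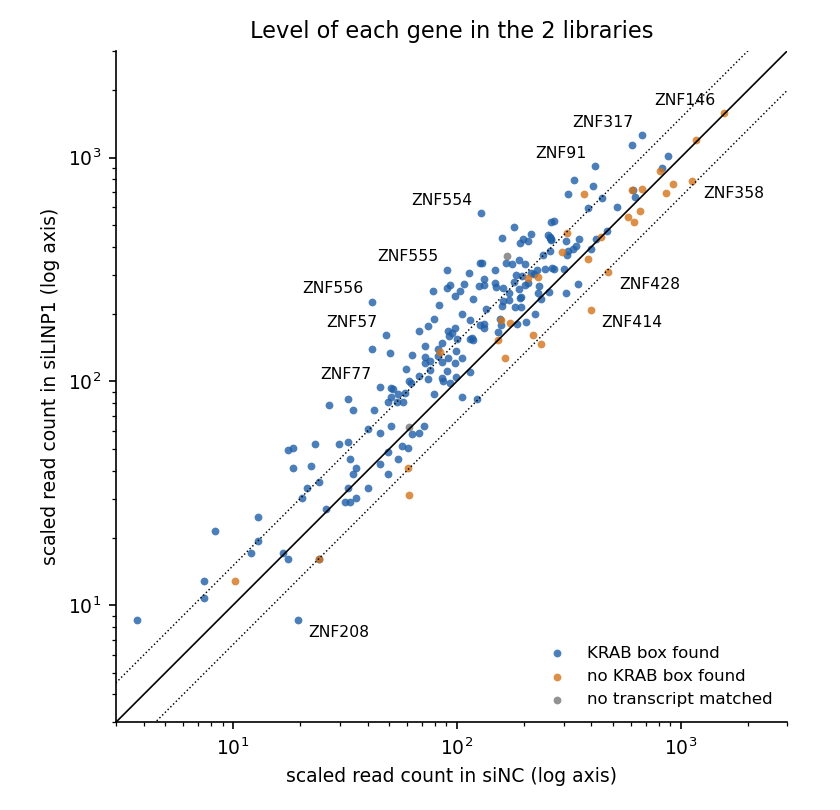
Scaled read count of each of the 231 ZNF genes of chromosome 19 in siNC (x axis) and siLINP1 (y axis), both on log axes, with colour for a KRAB box found or not in the encoded protein. The solid line marks equal counts and the dotted lines 1.5-fold, and 102 genes lie above the upper dotted line against 5 below the lower one.

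The other coding genes of the chromosome went the other way in the median. The log2 fold changes of these 822 genes centred on a median of -0.21, with 72 more than 1.5-fold higher and 128 more than 1.5-fold lower. The 238 ZNF genes of other chromosomes, picked by the same name and read minimum, had a median of 0.26, with 59 (24.8%) more than 1.5-fold higher and 6 lower. In the median they lay between the members and the 14044 protein-coding genes other than members, whose median was -0.04. These 14044 include both the 238 and the 822 genes. Members on the plus strand (124 genes, median 0.52) and on the minus strand (107 genes, median 0.47) were alike in median.

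**Figure D2:**
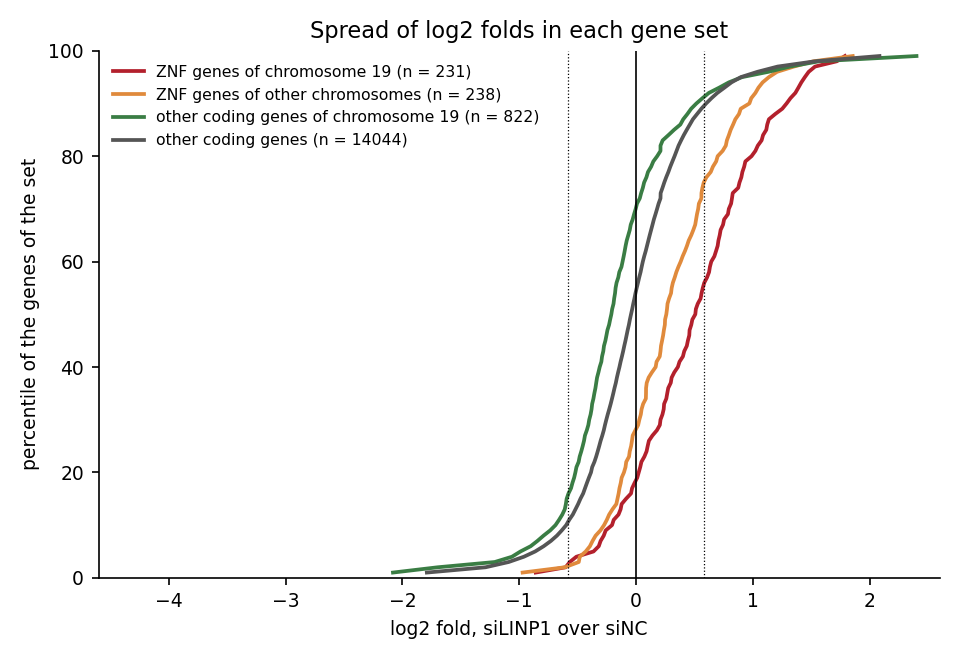
Percentile of the genes of each set (y axis) against the log2 fold change of siLINP1 over siNC (x axis), with dotted lines at 1.5-fold either way. The curve of the ZNF genes of chromosome 19 (n = 231, median 0.51) lies over most percentiles to the right of the other curves. These are the ZNF genes of other chromosomes (n = 238, median 0.26) and the other coding genes of chromosome 19 (n = 822, median -0.21). The last curve is that of the other coding genes (n = 14044), a set that includes the 238 and the 822.

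By position, 220 members fell into 10 clusters, each a run of at least 5 kept members whose neighbours start at most 500 kb apart, and 11 lay outside. The 77 members of the short arm had a median log2 fold change of 0.71, with 45 more than 1.5-fold higher, and the 154 members of the long arm a median of 0.44, with 57 higher. The cluster medians ran from -0.14 in cluster 9 to 1.81 in cluster 1. Members next to each other within a cluster differed by a median of 0.45 on the log2 scale over 210 pairs of neighbours, against 0.55 over all pairs of members. The median half-width of a member's own interval was 0.34, and the differences between neighbours were not tested.

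**Figure D3:**
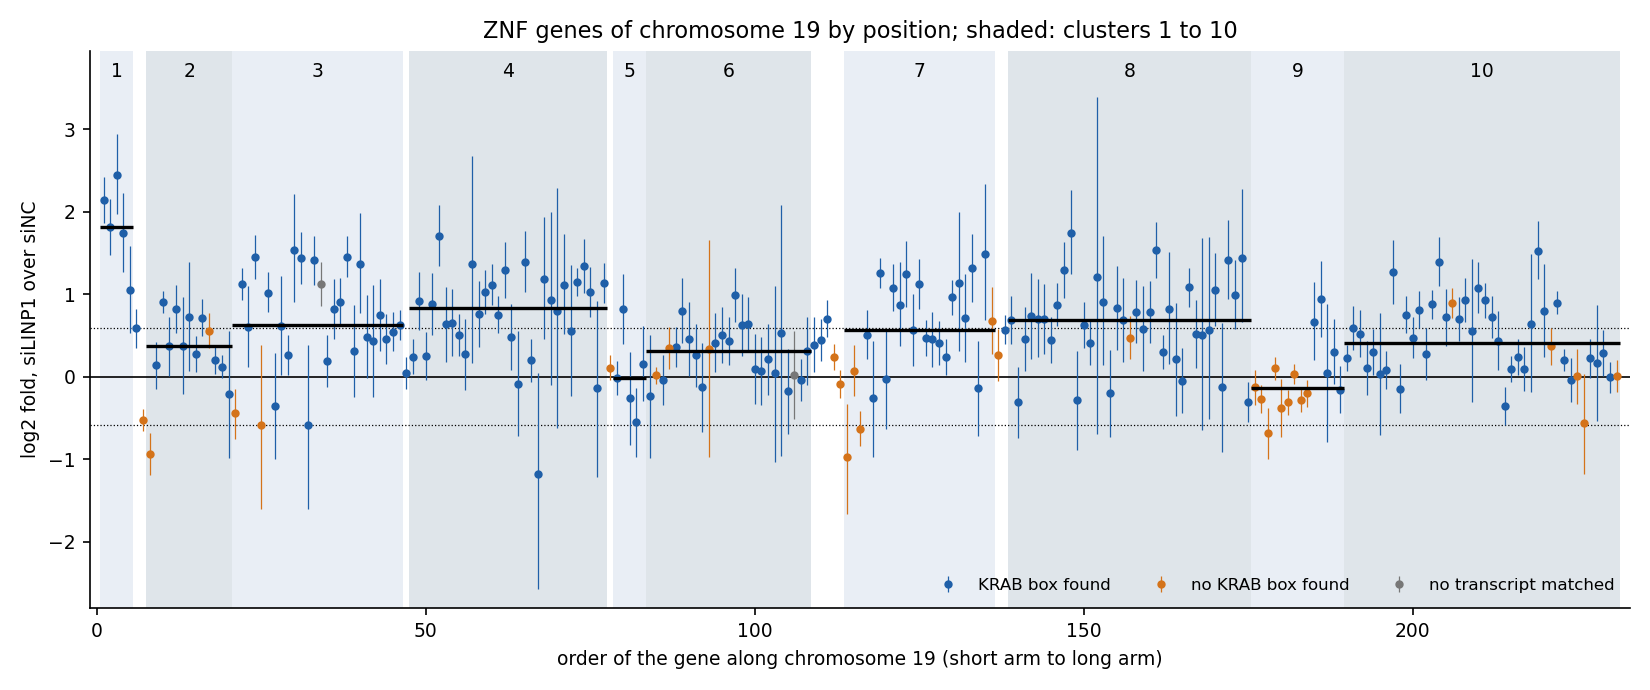
Log2 fold change of siLINP1 over siNC (y axis) with its 95% counting interval for the 231 ZNF genes in their order along chromosome 19 (x axis). Shaded bands are clusters 1 to 10, black bars their medians and dotted lines 1.5-fold either way. Cluster 1, at the left, lies highest with a median of 1.81, and cluster 9 lies lowest with a median of -0.14.

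Cluster 1 holds ZNF554, ZNF555, ZNF556, ZNF57 and ZNF77 within 125 kb of the short arm (chr19:2819872-2944969), the genes whose promoters are printed above. All 5 were more than 2-fold higher in siLINP1. ZNF554, the first gene, had 138 and 526 reads (2.14, interval 1.87 to 2.42). ZNF555 had 97 and 294 reads (1.81, interval 1.47 to 2.16), and ZNF556 had 45 and 211 (2.44, interval 1.97 to 2.94). No other member had an interval as far above no change as these 3. ZNF57 had 52 and 150 reads (1.74, interval 1.27 to 2.22) and ZNF77, the last gene of the cluster and its lowest value, had 49 and 88 (1.05, interval 0.53 to 1.59). All 5 encode KRAB proteins, with 7, 15, 9, 13 and 13 fingers in chromosomal order. They share few bases with other genes: at most 5.86% of the 50-base words over all transcripts of each were found in another gene. Antisense genes overlap ZNF555 and ZNF57, but these had 7 reads or fewer in either library.

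The coding genes on either side of cluster 1 were nearer to no change. Among the 19 other protein-coding genes within 500 kb, 2 were more than 1.5-fold higher and 2 were lower, and their median log2 fold change was -0.17. THOP1, 6.27 kb before the cluster, had 1312 and 1467 reads (0.37, interval 0.26 to 0.48). TLE6, 32.6 kb after it, had 36 and 27 reads (-0.21, interval -0.98 to 0.56). The 2 neighbours above 1.5-fold were GADD45B, a stress-induced gene 342 kb away (802 and 1250 reads, 0.85), and GNA15 (6 and 13 reads, interval -0.17 to 3.01). These neighbours are named for their place or after their values were seen.

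**Figure D4:**
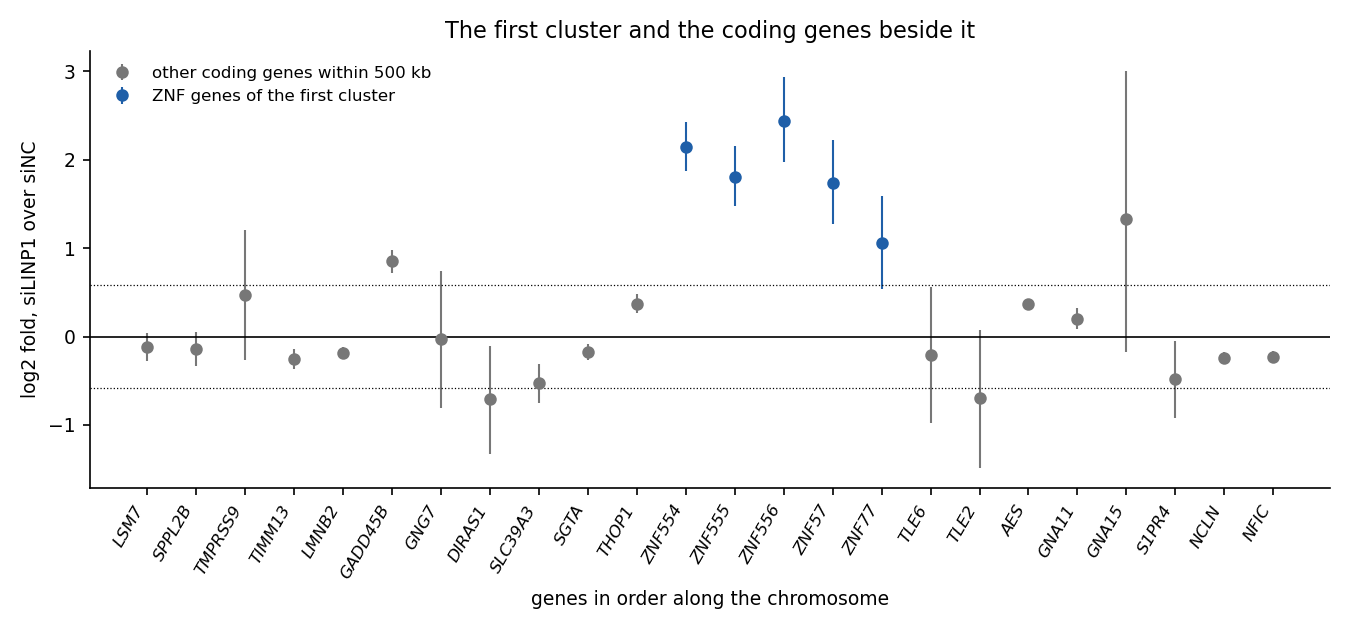
Log2 fold change of siLINP1 over siNC (y axis) with its 95% counting interval for the 5 ZNF genes of cluster 1 and the 19 other coding genes within 500 kb, in order along the chromosome (x axis); dotted lines mark 1.5-fold either way. The 5 ZNF genes lie between 1.05 and 2.44, and the median of the 19 others is -0.17.

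The remaining short-arm clusters had positive medians as well. Cluster 2 (chr19:8575462-9879410, 13 members, median 0.37) opens with ZNF414 and ends with ZNF846, which had 36 and 27 reads (-0.21, interval -0.98 to 0.55). Its highest member was ZNF317, one of the most deeply read genes of the group, with 725 and 1172 reads (0.90, interval 0.77 to 1.04). Cluster 3 (chr19:11594242-12740676, 26 members, median 0.62) had 15 members more than 1.5-fold higher and none lower by that much, from ZNF653 at its start to ZNF791 at its end (415 and 554 reads, 0.63). Among the 10 members highest by their interval, ZNF44 had 193 and 456 reads (1.45, interval 1.20 to 1.70) and ZNF441 had 172 and 406 (1.45, interval 1.19 to 1.71). The highest fold of the cluster, 1.54 for ZNF763, rested on 29 and 73 reads, and 45.4% of its 50-base words occur in another gene, so its reads may be divided with copies. The lowest value, -0.58 (interval -1.61 to 0.39), was shared by ZNF491 and the KRAB gene ZNF878, each with 26 and 15 reads.

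Cluster 4 (chr19:19778962-24312770), a run of 30 KRAB genes next to the centromere with AT-rich transcripts (median GC 37.2%), had a median of 0.84. Of its members, 20 were more than 1.5-fold higher and 12 more than 2-fold higher. ZNF93, which is known to repress LINE-1 elements, had 84 and 237 reads (1.71, interval 1.34 to 2.08), the highest fold of the cluster. ZNF91, known to repress SVA elements and carrying 32 fingers, had 444 and 851 reads (1.15, interval 0.98 to 1.32). Both therefore had their whole interval above no change. ZNF85 had 89 and 130 reads (0.76, interval 0.36 to 1.16) and ZNF43 had 251 and 249 (0.20, interval -0.06 to 0.46). The first gene, ZNF101, had 367 and 375 reads (0.24) and the last, ZNF254, had 212 and 403 (1.14). ZNF208, with 36 fingers the longest array among the members, was the lowest, with 21 and 8 reads (-1.18), but its interval of -2.57 to 0.05 includes no change and 24.8% of its 50-base words occur elsewhere.

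On the long arm the clusters differed. Cluster 5 (5 members, median -0.02, which turned positive under the other scalings) and cluster 6 (25 members, median 0.31) lay nearest to no change among the clusters made mostly of KRAB genes. In cluster 5, ZNF302 opened with 426 and 364 reads (-0.02), ZNF181 was highest with 78 and 119 (0.82, interval 0.39 to 1.25), ZNF30 was lowest with 132 and 78 (-0.55, interval -0.97 to -0.13) and ZNF792 closed with 85 and 82 (0.16). Cluster 6 had 4 members more than 1.5-fold higher and none lower by that much. It contains ZNF146, a gene of 10 fingers with no KRAB box and the most reads of all members, with 1673 and 1466 reads (0.02, interval -0.08 to 0.12). ZNF585A was highest there with 127 and 218 reads (0.99, interval 0.67 to 1.32), ZNF565, the first gene, was lowest with 38 and 28 (-0.23, interval -0.99 to 0.51), and ZNF573, the last, had 97 and 104 (0.31).

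Clusters 7 and 8 had higher medians again. Cluster 7 (chr19:44037340-45004575, 23 members, median 0.57) had 11 members more than 1.5-fold higher, 7 of them more than 2-fold, and 2 more than 1.5-fold lower. ZNF229 was highest with 19 and 46 reads (1.49, interval 0.69 to 2.34), and ZNF180 at its end had 91 and 126 (0.68). ZNF224, a repressor first described at the aldolase A gene, had 331 and 396 reads (0.47, interval 0.25 to 0.68), and 2 antisense entries with reads of their own overlap it. Cluster 8 (chr19:52074490-54083523, 37 members, median 0.69) had 21 members more than 1.5-fold higher and none lower by that much. ZNF616 had 45 and 130 reads (1.74, interval 1.24 to 2.26) and ZNF468 had 100 and 250 (1.53, interval 1.19 to 1.88). ZNF175 opens the cluster with 174 and 242 reads (0.69, interval 0.40 to 0.97), and ZNF350, known as ZBRK1 and a partner of BRCA1, had 66 and 93 (0.70, interval 0.23 to 1.18). At the far end ZNF331, an imprinted gene, stood the other way with 330 and 231 reads (-0.31, interval -0.55 to -0.06), close to the lowest member ZNF577 (113 and 79 reads, -0.31, interval -0.74 to 0.12).

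In cluster 9 (chr19:55987699-57135550), 8 of 14 members had a negative log2 fold change, and cluster 5, with 3 of 5, was the only other cluster where these were the majority. Cluster 9 is also the only cluster made mostly of genes without a KRAB box (9 of 14), with a median GC of 65.4% against 37.2% to 45.9% in the others. Its KRAB members, 5 genes, had a median of 0.30. ZNF628 at its start had 414 and 328 reads (-0.13) and ZNF71 at its end had 241 and 187 (-0.16), while ZNF583 was highest with 64 and 106 (0.94, interval 0.48 to 1.41). ZNF524 was lowest with 255 and 137 reads (-0.69, interval -0.997 to -0.382). The adjacent pair ZNF580 and ZNF581 had 927 and 646 reads (-0.31, interval -0.46 to -0.17) and 1257 and 1112 reads (0.03, interval -0.09 to 0.15). Cluster 10 (chr19:57702868-59000900), the largest with 42 members, had a median of 0.40, with 17 members more than 1.5-fold higher and none lower by that much. ZNF256 was highest with 97 and 242 reads (1.53, interval 1.18 to 1.88) and ZNF837, without a KRAB box, lowest with 65 and 38 (-0.56, interval -1.18 to 0.03). ZNF264 at its start had 658 and 668 reads (0.23) and ZNF446 at its end had 473 and 413 (0.01). ZNF274, which recruits SETDB1 to the 3′ ends of other zinc finger genes, had 654 and 1055 reads (0.90, interval 0.76 to 1.04). ZNF544, among the most read members, had 944 and 942 (0.21, interval 0.07 to 0.34), and ZNF154 had 22 and 28 (0.56, interval -0.30 to 1.43).

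Most of the members whose whole interval lay below no change encode finger proteins without a KRAB box. A negative log2 fold change was found in 28 of 198 KRAB members and in 15 of 31 members without a KRAB box. Members without a KRAB box had more reads, with a median of 742 against 296 for KRAB members, and more reads narrow an interval. At 100 or more reads, 165 KRAB members had a median log2 fold change of 0.62, with 87 more than 1.5-fold higher and 0 lower. The 28 members without a KRAB box at that depth had a median of 0.01, with 2 higher and 3 lower. The part of depth in these values was not tested. A KRAB box was found by its sequence pattern in 198 of the 229 kept members that matched a GENCODE transcript (GRCh37). These 198 had a median log2 fold change of 0.58, with 99 more than 1.5-fold higher and 1 lower. The 31 members in which the pattern found none had a median of 0.00, with 2 higher and 4 lower. These 31 are called without a KRAB box throughout, although a pattern can miss a box. The 14 members whose whole interval lay below no change included 11 without a KRAB box, with 1 to 9 fingers and a transcript GC of 60.7% to 70.4%. Among them, ZNF414 had 426 and 193 reads (-0.93, interval -1.19 to -0.68), ZNF428 had 512 and 286 (-0.63, interval -0.84 to -0.42) and ZNF358 had 1215 and 729 (-0.53, interval -0.66 to -0.39). ZNF575 had 66 and 29 reads (-0.98, interval -1.66 to -0.33), ZNF787 had 995 and 706 (-0.29, interval -0.43 to -0.14) and ZNF653 had 236 and 150 (-0.44, interval -0.75 to -0.14). The 3 KRAB genes of these 14 were ZNF30, ZNF331 and ZNF587B, which had 375 and 254 reads (-0.35, interval -0.59 to -0.12).

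Few of the members without a KRAB box have an AT-rich transcript, so the domain and the GC content are largely linked here. The 10 such members under 50% GC had a median of 0.36, and the 21 at 50% or more a median of -0.27. The 9 KRAB members at 50% or more had a median of 0.22. Set beside other protein-coding genes of the same GC range, the median over all members stood apart below 50% only. For the other genes, GC was that of the longest coding transcript, so the ranges are not measured quite alike. Under 40% GC the median was 0.56 for 64 members and 0.08 for 2182 other genes. From 40% to 45% it was 0.61 for 107 members and 0.03 for 2712 others, and from 45% to 50% it was 0.51 for 28 members and 0.01 for 2217 others. At 50% or more it was -0.11 for 30 members and -0.14 for 6251 others. Of the 9 KRAB members there, 33.3% were more than 1.5-fold higher, against 0% of the 21 without a KRAB box and 8.59% of the 6251 others. GC content moved with the fold among the other genes too, and its part in the values of the members was not tested. The number of fingers went with the fold less clearly: the median was 0.29 for 59 members with under 10 fingers, 0.62 for 93 with 10 to 14 and 0.48 for 77 with 15 or more.

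**Figure D5:**
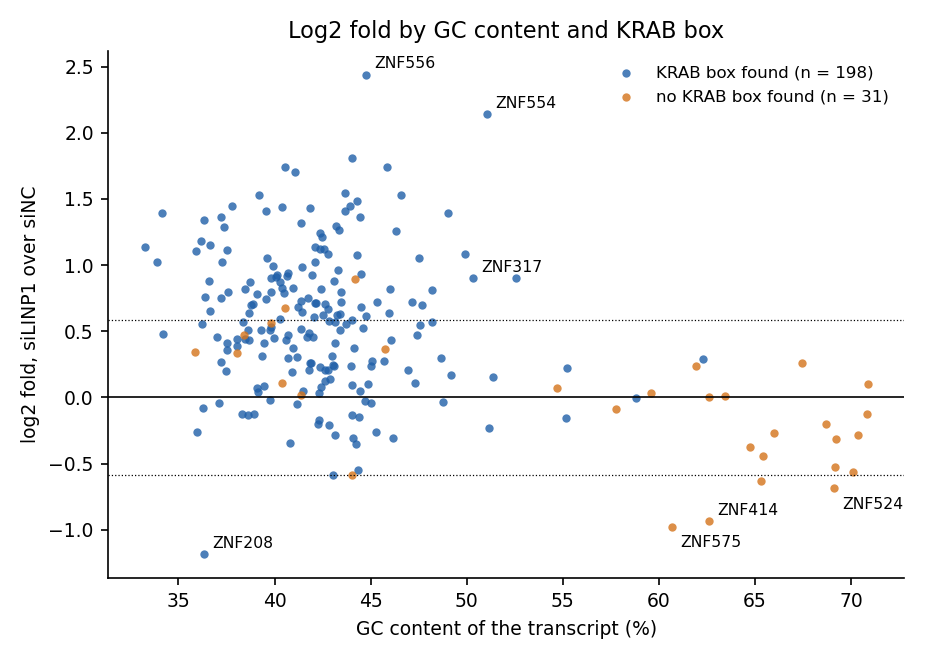
Log2 fold change of siLINP1 over siNC (y axis) against the GC content of the transcript (x axis, percent) for 229 members, coloured by whether a KRAB box was found (n = 198) or not (n = 31); dotted lines mark 1.5-fold either way. Most members above 60% GC have no KRAB box and lie below 0, and members under 50% GC lie mostly above 0.

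Across all members, the number of CCAAT boxes went with the fold weakly. The median log2 fold change was 0.38 for 90 members with 0 boxes, 0.60 for 68 with 1, 0.54 for 34 with 2 and 0.92 for 11 with 3 or more. Without the 4 members of cluster 1 among these 11 it was 0.63 over 7 members. Other protein-coding genes with 3 or more boxes (598 genes) had a median of -0.09 and those with 0 boxes (6635 genes) a median of -0.03. In cluster 4, where 18 of 26 promoters held 2 or more boxes, those 18 members had a median of 0.70 and the 8 with fewer had a median of 1.14. In cluster 8, with a median of 0.69, only 2 of 30 promoters held 2 or more. Members with 2 or more boxes had the higher median in cluster 2 (0.90 for 1 member against 0.24 for 10), cluster 6 (0.66 for 2 against 0.31 for 21), cluster 7 (1.31 for 1 against 0.49 for 18) and cluster 10 (0.47 for 7 against 0.33 for 32). They had the lower median in cluster 3 (0.36 for 6 against 0.69 for 18), cluster 8 (0.49 for 2 against 0.69 for 28) and cluster 9 (-0.20 for 1 against -0.13 for 11). Over all 203 members with a promoter, cluster 1 included, Spearman's rho between the number of boxes and the log2 fold change was 0.21, a description across genes of the same 2 libraries.

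The transcripts of proteins that KRAB zinc finger proteins recruit, or that act at their target chromatin, had a median near no change. Of 40 genes of the KRAB co-repressor machinery, all well above the read minimum, 18 had a positive and 22 a negative log2 fold change, with a median of -0.02, the same as over all genes tested. TRIM28 had 10355 and 7210 reads (-0.31, interval -0.36 to -0.27), and SETDB1 had 1657 and 1330 (-0.11, interval -0.21 to -0.003). None of the 40 was more than 1.5-fold higher. The whole interval lay above no change for 13 (32.5%) and below it for 18 (45%), against 23.0% and 25.6% of all genes. These 40 were read deeply, with a median of 3406 reads against 437 over all genes. EHMT2, a histone H3 lysine methyltransferase, was the only gene of the list more than 1.5-fold lower, with 2143 and 1228 reads (-0.59, interval -0.70 to -0.49).

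Reads could be divided between overlapping or similar genes. The strand setting of the counting was not given in the sources used here, and 79 members overlap another gene of the table, 58 of them a gene on the other strand. The 152 members without any overlap had a median of 0.55, with 72 more than 1.5-fold higher and 4 lower. The 25 members with at least 20% of their 50-base words in another gene had a median of 0.48. The readthrough entries ZNF559-ZNF177 (49 and 55 reads) and ZNF816-ZNF321P (38 and 38 reads) share exons with their neighbours and are uncertain.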

How the data were processed

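RNA was sequenced from 1 siNC library and 1 siLINP1 library of HSC-1 cells. The authors used TopHat2 for alignment (GRCh37/hg19) and HTSeq for counting on genes, and the processing notes also name HISAT, HISAT2 and Bowtie2, without roles. They deposited raw read counts and RPKM values per gene, and 12 other per-sample columns of the table were not used. From the counts, size factors, log2 fold changes without a pseudocount and 95% Clopper-Pearson intervals were computed, after leaving out genes under 10 summed reads. The RPKM values deposited by the authors served for levels only. A library with 0 reads was set to a floor of 3 reads, and depth limits each value as its interval shows.

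Groups came from the sample labels, and the only comparison was siLINP1 with siNC. A gene was called when it passed 1.5-fold, with 2-fold and an interval clear of no change beside it. The members and all lists were chosen with earlier results of these data known. Genes named were the 10 members with intervals farthest above no change and the 10 farthest below, the 5 with most reads, 12 with a known role, the first, last and extreme members of each cluster, those beside the read minimum, LINP1, TRIM28, SETDB1 and co-repressor genes past 1.5-fold; other genes were named after their values were seen. Arms were split at 26 Mb.

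Proteins were taken as the longest open reading frame of GENCODE v44lift37 coding transcripts, and fingers by the pattern C-x(2,4)-C-x(12)-H-x(3,5)-H. The KRAB box was found by sequence patterns widened after they had missed known KRAB genes. GC content of a member is that of the transcript with this reading frame, and GC content of other genes that of their longest coding transcript. ZNF781 and ZNF788 did not match. Alternatives were CPM, TMM and protein-coding size factors, minimums of 1, 30 and 100 reads, pseudocounts of 1 and 5, overlapping members left out and cluster gaps of 250 kb and 1 Mb. The calculations were tested on simulated data. TMM factors came from edgeR 4.0.16 under R 4.3.3, and all else from scipy 1.17.1, pandas 2.3.3, numpy 2.4.6 and matplotlib 3.10.9 under Python 3.11.15.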

Additional observations from a re-analysis of the deposited data

How the results depend on the processing

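The median log2 fold change of the members stayed between 0.46 (pseudocount of 5) and 0.59 (scaling by total count). Members more than 1.5-fold higher numbered from 90 of 195, at a minimum of 100 reads, to 117 of 231, by total count. Without overlapping members they were 72 of 152. The whole interval lay below no change for 11 to 14 members. Few members were lower, so those counts moved with the minimum: 3 were more than 1.5-fold lower at a minimum of 100 reads, and more than 2-fold lower were 2 at a minimum of 1 read and 0 at minimums of 30 or 100 reads or with a pseudocount of 5. Scaling moved every gene alike and turned the sign of the median of cluster 5, from -0.02 to 0.0059 with TMM factors, 0.014 with size factors from protein-coding genes and 0.065 by total count. With a gap of 1 Mb, cluster 9 joined cluster 10 and the median of the joined run was 0.26. Shares of all genes past 1.5-fold went from 14.4% higher and 13.0% lower to 16.7% and 10.4% by total count. No paired analysis was possible because each condition had 1 library, and for the same reason no library could be left out. The spread between cultures is unknown, and members with few reads have intervals wider than 1.5-fold either way.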

Other observations

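Zinc finger loci of chromosome 19 outside the coding ZNF symbols gave a mixed picture. Of 19 ZNF-named genes there that the table does not class as protein-coding, 7 (36.8%) were more than 1.5-fold higher in siLINP1, against 14.4% of all genes. Lower by that much were 0, against 13.0% of all genes, and the median log2 fold change was 0.29. Their median was 51 reads. ZNF625-ZNF20, ZNF8-ERVK3-1 and ZNF321P overlap members, so reads may be divided between them. The pseudogene ZNF702P went from 46 to 148 reads (1.90, interval 1.41 to 2.41), and ZNF724 had 15 and 36 (1.47, interval 0.57 to 2.45). Of the antisense genes named after a ZNF gene, ZNF582-AS1 had 22 and 35 reads (0.88, interval 0.07 to 1.72), while ZNF790-AS1 had 54 and 46 (-0.02, interval -0.62 to 0.57).

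Among 13 genes of the chromosome with zinc finger names other than ZNF, 3 (23.1%) were more than 1.5-fold higher and 2 (15.4%) lower, against 14.4% and 13.0% of all genes. ZIK1, inside cluster 10, had 68 and 130 reads (1.14, interval 0.71 to 1.59). ZFP82 in cluster 6 had 302 and 164 (-0.67, interval -0.95 to -0.39), and ZFP14 had 87 and 48 (-0.65, interval -1.19 to -0.12). The search for a KRAB box covered the members only, not these 13 genes. ZFP36, which binds AU-rich mRNA through CCCH fingers and shares only the name, had 1080 and 2711 reads (1.54, interval 1.43 to 1.64). All genes in these paragraphs were named after their values were seen.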
